A study of Ovis aries with 6 samples.

Results

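TNF is a secreted cytokine that switches on the transcription factor NF-kappaB, and NFKBIA encodes I-kappa-B-alpha, the protein that keeps NF-kappaB out of the nucleus. Both were followed in dorsal skin of newborn lambs on one-colour arrays. Each gene had 1 probe with 1 spot per array, A_70_P068111 for NFKBIA and A_70_P030271 for TNF. They are 2 of the 500 genes that could be named through RefSeq, and 2 of 15008 probes in all. The pair was chosen by its measured difference between coat patterns on these same arrays, so that difference is described here and not tested.

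The lambs were Hu sheep of 2 days of age, 3 with a large wave and 3 with a small wave coat pattern, each on an array of its own. L1, L2 and L3 stand for the large wave replicates and S1, S2 and S3 for the small wave replicates. According to the study design all lambs had the same father, and the 2 lambs of each pair, one per coat pattern, had the same mother. The tissue is bulk skin, in which fewer cells of a type and less RNA per cell cannot be told apart. All 6 arrays lay on 1 slide, and the 75th percentile of the processed signal, a measure of array brightness, was 204.7 to 391.5 for large wave and 94.7 to 284.8 for small wave. In each same-numbered pair the large wave array was the brighter.

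In unstimulated cells I-kappa-B proteins mask the nuclear localisation signal of NF-kappaB. Binding of TNF to its receptor TNFRSF1A activates the I-kappa-B kinase complex, which marks the inhibitor for degradation and frees NF-kappaB to enter the nucleus. NFKBIA is itself a target gene of NF-kappaB, so that its product closes a negative feedback loop. In skin the pathway also carries signals of Toll-like receptors and interleukin 1, and downstream of the ectodysplasin receptor it takes part in the formation of hair follicle placodes.

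Both genes were detected in every lamb. Relative to the other probes of each array, both had a lower mean signal with the large wave pattern, NFKBIA by 1.97-fold and TNF by 1.38-fold. For NFKBIA the large wave arrays lay below all small wave arrays in the processed signal, as they did for 4.89% of the probes measured on every array. In the signal before the scanner software's correction for position on the array they overlapped, and the difference was 1.27-fold. For TNF the groups overlapped in both. Of 15 other tested genes of the NF-kappaB pathway 0 passed the test between coat patterns, as did 0 of all 10047 probes tested.

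TNF gave a dim signal. The median pixel of its spot was 68 in L1, 74.5 in L2, 69 in L3, 75 in S1, 63 in S2 and 63 in S3, against a local background of 30 to 34. The spots stood 2.03 to 2.34 times above their surroundings, with little spread between lambs before any scaling. Each was marked well above background by the scanner software, and none as an outlier or saturated.

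The processed signal of TNF, after background subtraction and correction for position, was 23.5 in L1, 24.5 in L2, 24.2 in L3, 28.7 in S1, 16.3 in S2 and 16.2 in S3. The software's own error estimate was 11.4 to 15.8% of the signal. S2 and S3 were thus lower than the other 4 lambs before scaling. The brightest of 77 negative control spots reached 2.46 to 3.75 on L1, L2, L3 and S1, but 10.1 on S2 and 9.69 on S3. TNF was at least 6.52 times that spot on the former arrays, and 1.62 times on S2 and 1.67 times on S3. It was brighter than 38.0 to 53.5% of the spots of its array, a rank that also depends on how well the probe binds.

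Scaling by array brightness changed the order of the lambs. The scaled value is the log2 processed signal minus the log2 75th percentile of the same array, so that 0 is the brightness of the upper quartile. For TNF it was -4.06 in L1, -3.06 in L2, -3.36 in L3, -3.31 in S1, -3.22 in S2 and -2.55 in S3. L1, the brightest array, had the lowest scaled value, and S3, the dimmest, had the highest.

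The mean scaled level of TNF was -3.50 ± 0.51 for large wave against -3.03 ± 0.41 for small wave (SD, n = 3), a difference of -0.47 ± 0.46 (SE). The groups overlapped, and 43.5% of the probes tested had a difference of larger size. By pair, large wave minus small wave, it was -0.75, 0.16 and -0.81, so that pair 2 went the other way. It was -0.19 without L1 and -0.23 without S3. With brightness as a covariate it was 0.0011. Within slide row 1, which held L2, L3 and S1, the TNF difference was 0.094, and within row 2 it was -1.17. In the processed signal before scaling, the large wave lambs of pairs 2 and 3 had the higher TNF, each by 0.58 on the log2 scale.

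NFKBIA gave a bright signal. Its median pixel was 1099 in L1, 704.5 in L2, 1053.5 in L3, 1335 in S1, 588 in S2 and 513 in S3, which is 16.5 to 41.1 times the local background. The spot was marked well above background on 6 of 6 arrays, with no outlier or saturation mark. It was brighter than 84.6 to 92.2% of the spots of its array, and the software's error estimate was 10.0% of the signal on each.

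The processed signal of NFKBIA was 1111 in L1, 663 in L2, 587 in L3, 1169 in S1, 757 in S2 and 771 in S3. Scaled, it was 1.50 in L1, 1.69 in L2, 1.24 in L3, 2.04 in S1, 2.31 in S2 and 3.02 in S3. The highest large wave value lay below the lowest small wave value. Over the 9220 probes measured on every array, 4.89% had every large wave array below every small wave array, 4.87% had every one above, and 9.76% had no overlap in either direction.

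The mean scaled level of NFKBIA was 1.48 ± 0.23 for large wave against 2.46 ± 0.51 for small wave (SD, n = 3), a difference of -0.98 ± 0.34 (SE). By pair it was -0.53, -0.62 and -1.79, with the widest gap in pair 3. A difference of larger size was found for 12.2% of the probes tested. Leaving out each array in turn gave -1.19 to -0.70, the latter without S3. With brightness as a covariate the NFKBIA difference was -0.62 ± 0.31 (SE). Within slide row 1, which held L2, L3 and S1, the difference was -0.57, and within row 2 it was -1.17. In the authors' deposited table the log2 values were 9.36 in L1, 9.42 in L2, 9 in L3, 9.85 in S1, 9.88 in S2 and 10.4 in S3. There the difference was -0.78, again with no overlap, which 4.14% of the probes showed in that direction.

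**Figure D1:**
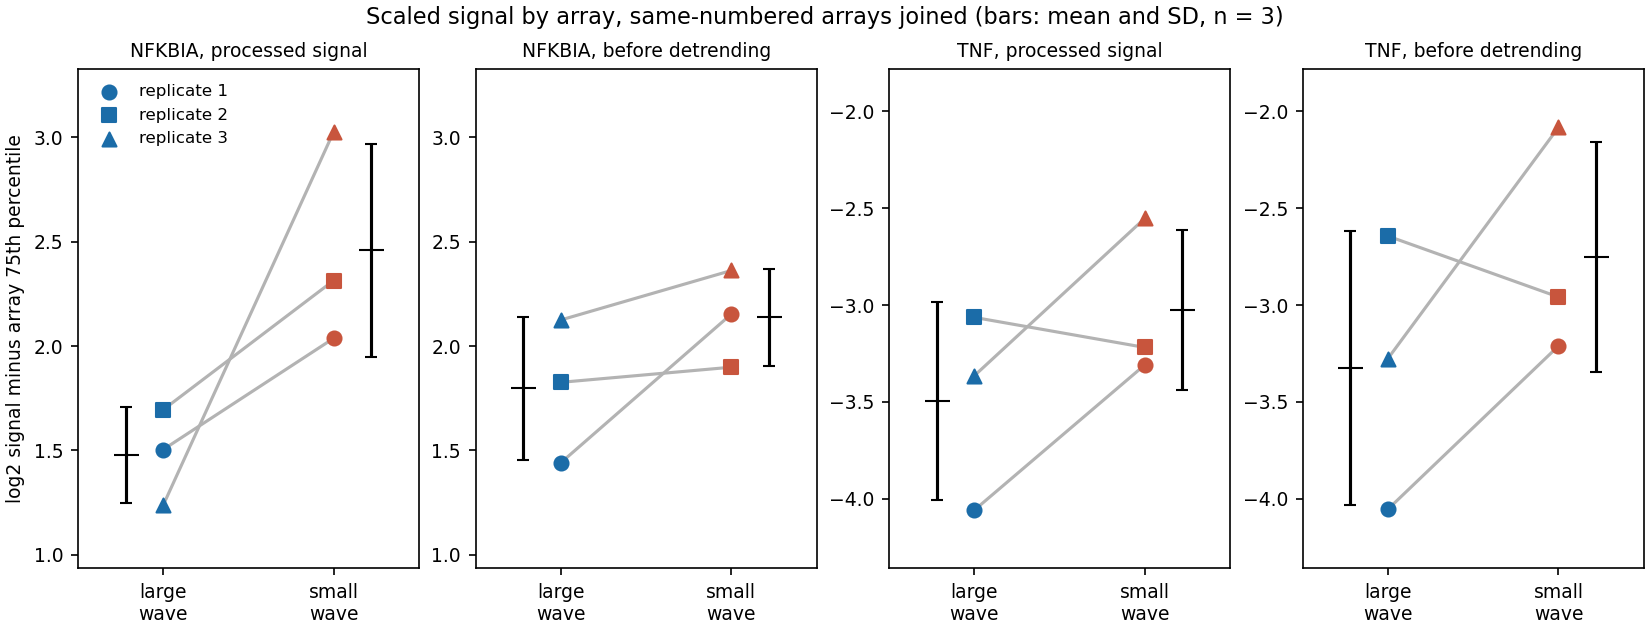
Scaled log2 signal of NFKBIA and TNF (vertical axis) in the 6 arrays, in the processed signal and in the background-subtracted signal before detrending; points are single lambs, lines join same-numbered lambs, and bars give the mean and SD of 3 arrays. For NFKBIA the large wave points lie between 1.24 and 1.69 and the small wave points from 2.04 upwards in the processed signal, while before detrending the groups overlap.

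The NFKBIA spot lies near a corner of the array, in row 6 and column 9, where the correction for position was strong. Feature Extraction corrects each array for a smooth trend over its surface (detrending), and the ratio of the processed to the background-subtracted signal gives the factor applied to a spot. The background-subtracted signal of NFKBIA was 1070 in L1, 715 in L2, 1068 in L3, 1268 in S1, 558 in S2 and 461 in S3. The factor was 1.04 in L1, 0.926 in L2, 0.550 in L3, 0.922 in S1, 1.36 in S2 and 1.67 in S3. The correction thus lowered NFKBIA in L3 and raised it in S2 and S3, and was small on the other 3 arrays.

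On L3 only 0.706% of the spots with a background-subtracted signal over 100 had a lower factor than NFKBIA. On S2 its factor was above that of 91.1% of such spots and on S3 above 94.8%. The spot of TNF, in row 120 and column 23, had factors of 0.758 to 0.990 on large wave and 0.762 to 0.934 on small wave arrays.

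**Figure D2:**
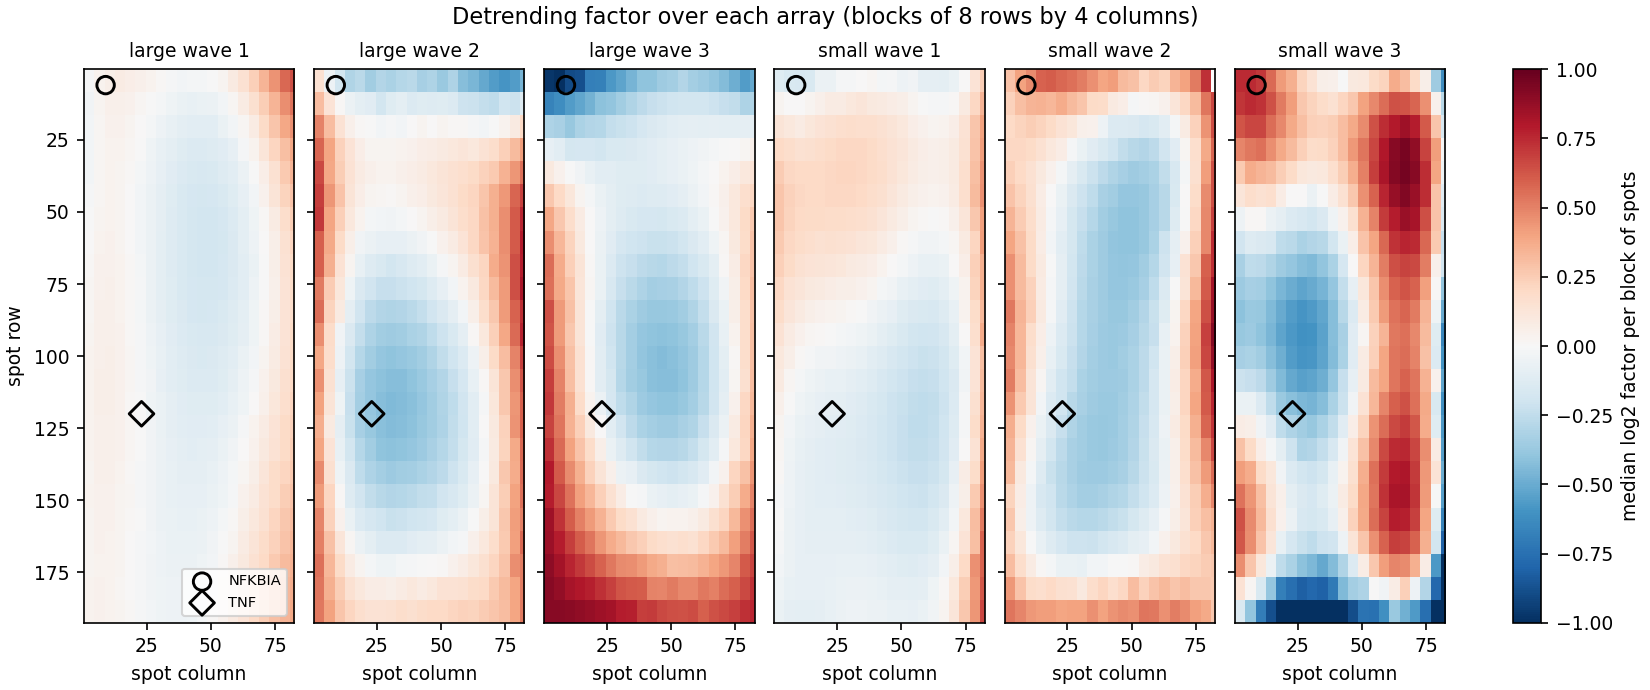
Median log2 detrending factor in blocks of 8 rows by 4 columns of spots (horizontal axis spot column, vertical axis spot row) over each of the 6 arrays, red where the signal was raised and blue where it was lowered, with the spots of NFKBIA (circle) and TNF (diamond). The corner with NFKBIA is lowered on L3 and raised on S2 and S3.

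**Figure D3:**
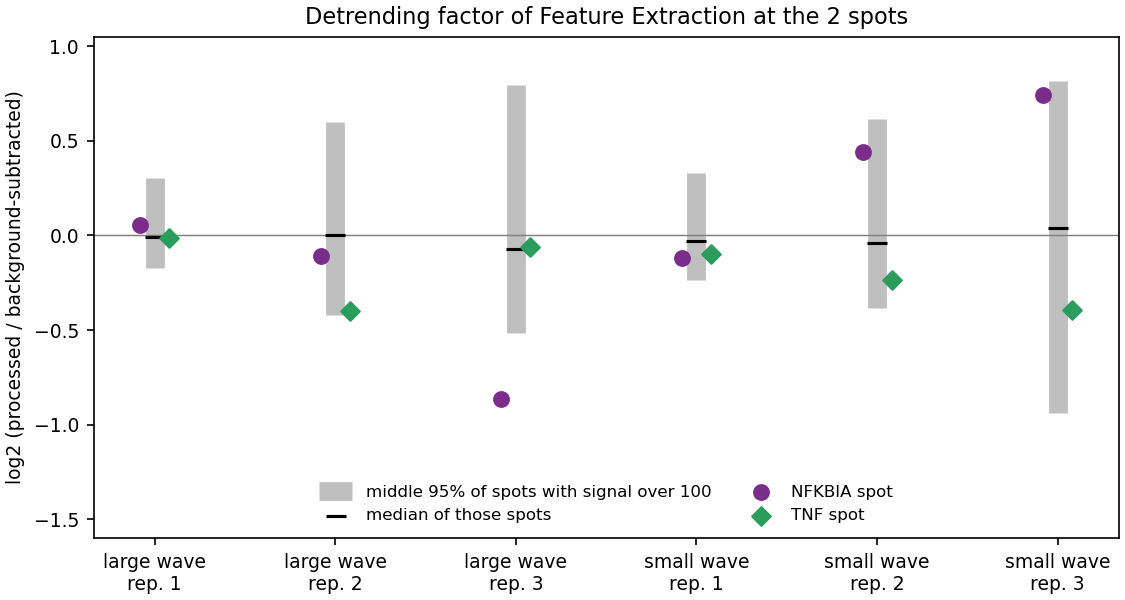
Log2 ratio of processed to background-subtracted signal at the NFKBIA spot (circles) and the TNF spot (diamonds) on each array, with the middle 95% of spots with a signal over 100 (grey bars) and their median (dashes). NFKBIA is at -0.86 on L3, below the bar, and at 0.44 on S2 and 0.74 on S3.

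Before detrending, with each array scaled by its own 75th percentile of that signal, NFKBIA was 1.44 in L1, 1.83 in L2, 2.12 in L3, 2.15 in S1, 1.90 in S2 and 2.36 in S3. L3 now lay above S2, and the groups overlapped; 4.58% of the probes had every large wave array lower in this signal. The means were 1.80 ± 0.34 for large wave against 2.14 ± 0.23 for small wave (SD, n = 3), a difference of -0.34 ± 0.30 (SE). By pair it was -0.71, -0.072 and -0.24, each still lower in the large wave lamb. Pair 3 moved most, while pair 1 differed by 1.45-fold after and 1.64-fold before detrending.

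Few probes moved as much. Over 6360 probes well above background on all arrays, detrending changed the difference between coat patterns by a median of 0.14 in size. For NFKBIA it changed by -0.64, and 0.928% of those probes changed by more. For TNF the change was 0.10, and 63.4% changed by more. Normexp background correction with quantile normalization, which starts from pixel medians before any detrending, gave a difference of -0.18 for NFKBIA and -0.20 for TNF. By pair it was -0.63, 0.096 and 0.0044 for NFKBIA, lower in the large wave lamb in 1 of 3. That setting adds an offset of 50, above the background-subtracted TNF signal of 19.3 to 32.3, which shrinks log2 differences of dim probes.

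Probes around the NFKBIA spot shifted too. Among the 200 nearest probes the median difference between coat patterns was 0.27 before detrending and -0.23 after it. The number of these neighbours with the lower mean for large wave went from 72 to 122 of 200, while over all 9220 probes that share was 49.5% before and 49.9% after. The area around NFKBIA thus stood to one side of the array as a whole before the correction and to the other side after it.

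NFKBIA was therefore also read against its surroundings, by subtracting on each array the median deviation of the nearest probes from their own means. From the processed signal this gave 1.47 in L1, 1.71 in L2, 1.43 in L3, 2.15 in S1, 1.95 in S2 and 2.71 in S3, a difference of -0.73 ± 0.29 (SE) without overlap. Under this treatment 5% of the probes had every large wave array below every small wave array. From the signal before detrending it gave 1.34 in L1, 1.87 in L2, 1.68 in L3, 2.19 in S1, 1.76 in S2 and 2.57 in S3. That difference was -0.54 ± 0.31 (SE), with overlap and with pair 2 at 0.11. Over these 4 treatments of position NFKBIA ranged from -0.98 to -0.34 and TNF from -0.57 to -0.47.

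**Figure D4:**
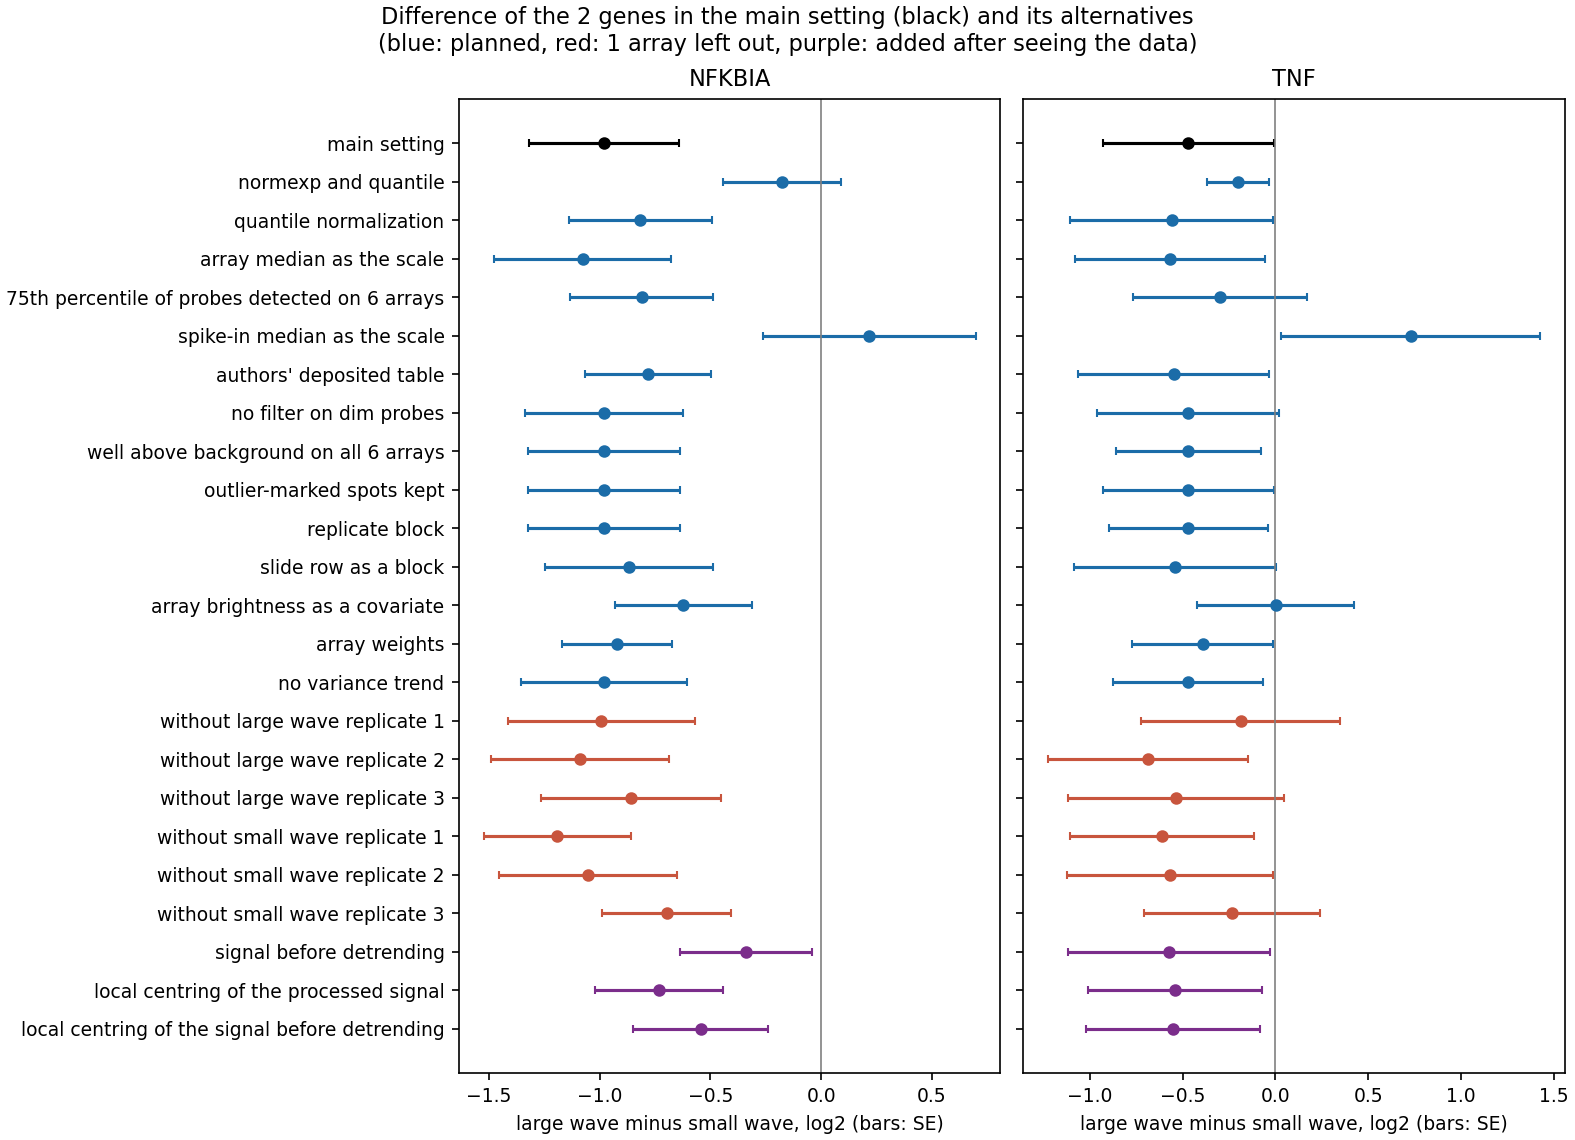
Difference between large wave and small wave skin on the log2 scale, with its SE, for NFKBIA and TNF under the main and the other processing settings. NFKBIA lies at -0.98 in the main setting, at -0.34 before detrending and at 0.22 with spike-in scaling, which moves all probes upwards.

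The sign of both differences was kept with the array median as the scale (-1.08 for NFKBIA and -0.57 for TNF), after quantile normalization (-0.82 and -0.56) and with the percentile over probes detected on all arrays (-0.81 and -0.30). With the median of the spike-in controls as the scale, NFKBIA differed by 0.22 and TNF by 0.73, while the median over all probes tested moved from -0.02 to 1.18. Both scalings subtract a single value per array, which shifts all probes measured on every array alike. Relative to the median of all probes NFKBIA therefore stood at -0.96 and TNF at -0.45 in each, by construction. The differences are thus relative to the other probes of the array and do not give the amount of RNA in the skin.

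The rest of the pathway was sparsely measured. Of 75 listed genes 29 had a RefSeq probe, and 15 of these were well above background on at least 3 arrays and were tested. In limma, adjusted over all 10047 probes, 0 of the 15 passed in either direction, and 0 had an unadjusted p under 0.05. Over all probes tested 0% passed and 3.82% had an unadjusted p under 0.05. The mean was lower for large wave in 4 of the 15 and higher in 11, with a median difference of 0.13, against a median of -0.02 and 51.3% lower over all probes. Of 9 genes with another tested probe, that probe had the opposite sign in 4, so the count depends on the probe chosen. The lowest adjusted p of the 15 in limma was 0.803.

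Among the ligands, interleukin 1 alpha (IL1A), which keratinocytes store, differed by 0.32 ± 0.58 (SE). IL18 differed by 0.13 ± 0.35, while its other probe gave -1.02. IL1B, a cytokine of activated macrophages, and CD40LG, the T cell ligand of CD40, were not well above background on any array. The receptor of TNF, TNFRSF1A, was well above background on 6 of 6 arrays and differed by 0.38 ± 0.43, with overlap between the groups.

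Of 9 Toll-like receptors on the array, which recognise microbial molecules, 3 were tested. TLR2 differed by 0.20 ± 0.54 (SE), TLR3 by -0.16 ± 0.43 (its other probe by 0.13) and TLR6 by 0.06 ± 0.41 (another probe by 0.16). The other TLR2 probe differed by 0.78 ± 0.46, with all large wave arrays above all small wave arrays. That order was found for 4.87% of the probes measured on every array. TLR4, the receptor of bacterial lipopolysaccharide, was well above background on 1 array, and TLR1, TLR5, TLR7, TLR8 and TLR9 on none. The adaptor MYD88, which joins these receptors to the kinase cascade, was well above background on 2 arrays, both large wave. Over all spots, 61.1 to 70.7% were well above background on large wave and 51.4 to 69.4% on small wave arrays. IRAK4, the kinase recruited by MYD88, differed by -0.37 ± 0.40, and its other probe by 0.21. The anti-inflammatory cytokine IL10 differed by -0.31 ± 0.47, and its other probe was well above background on only 1 array.

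Targets of NF-kappaB had wide errors. The neutrophil chemokine CXCL1 differed by 0.52 ± 0.92 (SE) over 2 arrays per group, and its other probe by 2.76 ± 1.16. CXCL8, also a neutrophil chemokine, differed by 0.24 ± 0.71 and was well above background on 3 arrays. The adhesion molecules SELE and ICAM1, which endothelial cells display to leukocytes, differed by 0.39 ± 0.73 and 0.24 ± 0.79. SELE was well above background on 4 arrays and ICAM1 on 3, while the other SELE probe was not on any array. SELP, well above background only on 2 of the large wave arrays, was not tested. In each same-numbered pair the large wave array also had more of all its spots well above background.

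PTGS2, the inducible cyclooxygenase, differed by 0.11 ± 0.40 (SE), the survival factor BCL2L1 by 0.06 ± 0.59 (its other probe by -0.32) and the death receptor FAS by -0.03 ± 0.44. The other PTGS2 probe was not well above background on any array. IL6, CXCL10, CSF2 and IRF1 were not well above background on any array. In all, 11 of the 29 genes were not well above background on any array by any probe. Of the 7 tested targets 6 had a higher mean for large wave, as did 4894 of all 10047 probes, and each of the 6 changed sign under at least 1 other processing setting.

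**Figure D5:**
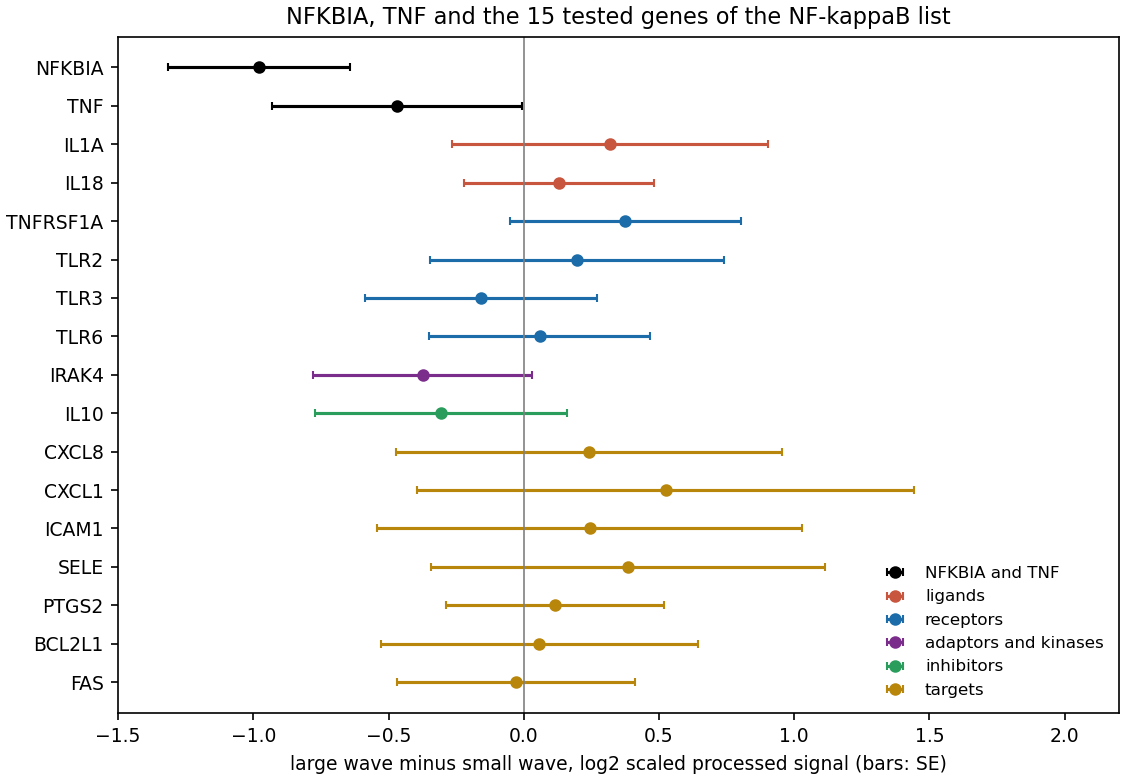
Difference between large wave and small wave skin on the log2 scale of the scaled processed signal (horizontal axis), with its SE, for NFKBIA, TNF and the 15 tested genes of the NF-kappaB list, coloured by role. NFKBIA is at -0.98, and the 15 listed genes lie between -0.37 and 0.52.

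Leukocytes express both TNF and NFKBIA, so their markers were read beside them. Of 24 listed markers 7 were on the array and 4 were tested. All 4 had the lower mean for large wave, against 51.3% of all probes tested, and 0 passed (limma, lowest adjusted p 0.781). They were CD3E of T cells (-0.64), CD14 of monocytes (-0.07), the integrin chain ITGB2 (-0.25) and the lysozyme gene LYZ (-0.59). CD14 and ITGB2 were lower in only 1 of 3 pairs, and the other ITGB2 probe gave 0.45. The summed signal of the 4, in units of the array's 75th percentile, was 0.431 to 0.534 for large wave and 0.418 to 1.03 for small wave, highest in S3. CD3D and ITGAM were not well above background on any array, and CD4 on 1 small wave array.

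Markers of other cell types in the skin also differed in mean, in both directions. Of 13 tested, 9 had the lower and 4 the higher mean for large wave. In limma 0 passed after adjustment, and 5 had an unadjusted p under 0.05. Over all probes tested 51.3% had the lower mean, 0% passed and 3.82% had an unadjusted p under 0.05. Of the probes measured on every array 9.76% had no overlap in either direction. The marker lists were chosen with earlier results of these data known. AQP1, a marker of endothelium, differed by -2.29 ± 0.70 (SE), with all large wave arrays below all small wave arrays. The fast muscle genes TNNC2 and MYL11 went opposite ways, by -1.35 and 0.74, both without overlap. The keratinocyte gene SFN differed by -1.12 and the fibroblast gene DCN by 0.10, each over 2 arrays per group. The fat cell genes LPL and PLIN1 differed by -1.10 and -0.50. In the authors' deposited table, read over all 6 arrays with no outlier-marked spot left out, SFN differed by -0.26 and DCN by 2.04.

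All 6 measured hair shaft and inner root sheath genes, which mark the follicle, were well above background on 6 of 6 arrays. KRT35 differed by -0.98, KRT25 by -0.80 (its other probe by 0.38), the hair keratin listed as V15 by -0.58 and KRT27 by -0.15, while KRT33A differed by 0.34. PADI3, an enzyme that modifies inner root sheath proteins, differed by 1.04, with all large wave arrays above all small wave arrays. Outlier-marked spots were dropped, so only PADI3 kept a value from every lamb. The differences of KRT35, KRT25 and V15 rested on 3 lambs for large wave against 2 for small wave. In the same order KRT27 rested on 2 against 1, and KRT33A on 1 against 2. In the authors' deposited table KRT35 differed by 0.50 and V15 by 0.47, the opposite sign, while KRT25, KRT27, KRT33A and PADI3 kept theirs. There 2 of the 6 genes had the lower mean for large wave, against 4 in the main setting. The part of any of these cell types in the values of TNF and NFKBIA was not tested.

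Over the 6 arrays the scaled signals of NFKBIA and TNF correlated at r = 0.734. Of 304 named genes compared, those most like NFKBIA were the ubiquitin gene UBB (r = 0.986), the water channel AQP1 (r = 0.979) and PRKACA, a catalytic subunit of protein kinase A (r = 0.950). In the signal before detrending the same correlations were 0.472 for UBB, 0.577 for AQP1 and 0.552 for PRKACA. Those most like TNF were the activin subunit INHBA (r = 0.966), the glycogen phosphorylase PYGB (r = 0.961) and the transcription factor GATA3 (r = 0.944). Before detrending these were 0.876 for INHBA, 0.976 for PYGB and 0.982 for GATA3. These are descriptions over 6 arrays that share a slide and a scaling, and S3 had the highest value of NFKBIA, TNF and each of these 6 genes.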

How the data were processed

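Spot intensity was deposited by the authors as Feature Extraction output (10.7.3.1 in the file headers, 10.7 in the submitters' processing notes). Its processed intensity is background-subtracted and detrended within the array, per the file headers, with no scaling between arrays. The headers list fits of an additive and of a multiplicative surface; the ratio of processed to background-subtracted signal is called detrending here, and whether the latter already holds the additive part is not stated. The authors' deposited table gives log2 values, and no source used here states how they were normalized. Column names tie all 6 of its columns to samples.

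From the scanner output, log2 processed signal minus the array's 75th percentile was fitted with limma 3.58.1 in R 4.3.3, with a variance trend and Benjamini-Hochberg adjustment over all probes. Spots marked as outliers were dropped and spots of one probe averaged. Of 15008 probes 10048 were well above background on at least 3 arrays, and 10047 were tested at 0.05. With 3 arrays per group, half-widths of the 95% intervals had a median of 1.06. Where a gene had several probes passing this filter, the brightest on average stood for it. Accessions without versions matched RefSeq (ARS-UI_Ramb_v3.0) for 767 of 786 probes. The files name no genome build, so no coordinates are given.

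Text names all probes of NFKBIA and TNF, all pathway list genes on the array and the 3 genes most alike by Pearson's r. Members and lists were chosen with earlier results of these data known. Same-numbered arrays deviated together (r of 0.30, 0.18 and 0.20 over 9220 probes), so they were read as pairs, although no label ties the number to the mother. Each number also has a slide column of its own, so mother and slide column cannot be told apart. The model had no block. The p-values measure only the spread between these 6 samples. The signal before detrending, floored at 0.005 of the 75th percentile, and centring on the 200 nearest probes were chosen after seeing the data. Normexp (offset 50) used median pixels. The fit was tested on simulated data.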

Additional observations from a re-analysis of the deposited data

How the results depend on the processing

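Under 17 alternatives without left-out arrays, NFKBIA kept its sign in 16 and TNF in 15. Some of these could not change the 2 differences and returned the same -0.98 and -0.47. They were the other filters on dim probes, outlier-marked spots kept, the replicate block and no variance trend. Their kept signs therefore say nothing about how stable the differences are. NFKBIA was -0.18 after normexp correction, 0.22 with spike-in scaling, -0.34 before detrending (there -0.16, -0.35 and -0.50 without L1, L2 and L3, and -0.33, -0.46 and -0.23 without S1, S2 and S3) and -0.54 after local centring of the latter. TNF was 0.73 with spike-in scaling. With array brightness as a covariate NFKBIA was -0.62 and TNF 0.0011. With the replicate block, by which the arrays are paired, NFKBIA stayed at -0.98 and TNF at -0.47, and 0 probes passed. Counts of probes and pathway genes past the threshold were 0 under each alternative run, with lowest adjusted p values in limma of 0.175 to 0.999 over all probes. As each of the 2 genes has 1 probe, no other probe or mean over probes could be tried. The causes of these changes were not tested.

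Pathway genes, none of which passed under any of these settings, changed sign as follows. Normexp correction gave IL1A -0.056, TLR3 0.056, CXCL8 -0.015, PTGS2 -0.18 and FAS 0.041. TLR6 was -0.043 after quantile normalization, -0.036 in the authors' deposited table and -0.038 with the array median as the scale, where BCL2L1 was -0.039. The percentile over detected probes gave TLR3 0.011 and FAS 0.14, and spike-in scaling TLR3 1.04, IRAK4 0.82, IL10 0.89 and FAS 1.17. The replicate block gave CXCL1 -1.44. The slide row as a block gave TLR6 -0.071, SELE -0.058 and PTGS2 -0.011. Brightness as a covariate gave IL1A -0.54, IL18 -0.015, TLR2 -0.34, CXCL1 -2.53, ICAM1 -0.76, BCL2L1 -0.65 and FAS 0.041. Array weights gave TLR3 0.16, IL10 0.024, BCL2L1 -0.14 and FAS 0.37. Before detrending PTGS2 was -0.35 and FAS 0.025. Local centring gave PTGS2 -0.093 and BCL2L1 -0.012, and before detrending TLR2 -0.020, PTGS2 -0.22 and FAS 0.012. Leaving out each array in turn moved CXCL1 from -0.75 to 1.80, ICAM1 from -0.39 to 1.06, BCL2L1 from -0.39 to 0.41, FAS from -0.28 to 0.16, TLR6 from -0.13 to 0.22, PTGS2 from -0.13 to 0.48, IL18 from -0.042 to 0.41, CXCL8 from -0.45 to 0.64, TLR3 from -0.41 to 0.00034, TLR2 from -0.084 to 0.57, SELE from -0.34 to 0.92 and IL1A from -0.093 to 0.95.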
